A study of Mus musculus with 17 samples.

Results

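The 39 genes described here encode proteins of the synaptic vesicle and of the active zone, the patch of nerve terminal membrane where vesicles release transmitter. They were taken by symbol from the 55453 distinct gene symbols of the mouse cortex table, and all 39 passed the filter of a mean of at least 1 TPM (a level per transcript length, scaled to the same total in every library) that left 16265 genes to test. The RNA was from bulk cortex, taken from 17 males of the C57BL/6J strain that formed 6 groups. Hnrnph2-KO mice were hemizygous for a frameshift that ends the reading frame of the X-linked gene early, and R206W and P209L mice were hemizygous for a knockin of the mouse equivalent of a human substitution in the nuclear localization signal of hnRNPH2, an RNA-binding protein. KO and R206W mice were sampled at 8 weeks with 3 mutants and 3 wild-type littermate controls each. P209L mice were sampled at 3 weeks, with 3 mutants and 2 wild-type littermate controls analysed here. The allele was in every cell of the mutants, and only males were studied. The 3-week mice all belonged to the P209L line, so age and line cannot be told apart.

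At a nerve terminal, transmitter is loaded into vesicles by transporters in the vesicle membrane, and synapsins hold the filled vesicles in a reserve cluster. Vesicles then dock at an active zone built on the scaffold proteins bassoon, piccolo, RIM and ELKS, and are primed by Munc13. A rise in calcium is sensed by synaptotagmins, and the SNARE proteins SNAP-25, syntaxin and synaptobrevin drive fusion. The ATPase NSF then takes the SNARE complexes apart, and dynamin pinches new vesicles off the membrane. In rodent cortex, synapses form and mature mainly in the weeks after birth, and many of these genes rise over that time.

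The 39 genes together made up 6815 to 8414 TPM in the 5 mice at 3 weeks and 10424 to 13523 TPM in 11 of the 12 mice at 8 weeks. The exception was KO control 1, at 7520 TPM, which was the lowest of the 12 mice at 8 weeks for 35 of the 39 genes. This mouse also had the highest share of mitochondrially encoded RNA, at 20.1% of TPM against 10.7% to 15.4% in the other 16 mice. A list of 8 neuronal genes with no synaptic vesicle role (Rbfox3, Eno2, Tubb3, Map2, Nefl, Nefm, Uchl1 and Elavl3) summed to 1621 TPM in it, against 2269 to 3154 TPM in the other 11 mice at 8 weeks and 1671 to 2062 TPM in the mice at 3 weeks. Its summed astrocyte, oligodendrocyte, microglial and endothelial markers were also the lowest of the 12 mice at 8 weeks. They were at 1594, 2629, 289 and 246 TPM, and in the 6 mutants at 8 weeks at no less than 2071, 2809, 320 and 252 TPM. The low values of this mouse were thus not confined to neuronal genes. Several counts are therefore also given without that mouse. Hnrnph2 itself was at 21.3 to 24.4 TPM in KO mice and at 80.5 to 145 TPM in their controls. The cortical marker Tbr1 was present in all 17 mice, at 27.0 to 68.2 TPM. The cerebellar markers Gabra6 and Cbln3 were at 3.08 and 3.16 TPM in KO 1 and at no more than 0.31 TPM in the other 16 mice. In bulk tissue, fewer neurons and less of a transcript per neuron cannot be told apart.

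**Figure D1:**
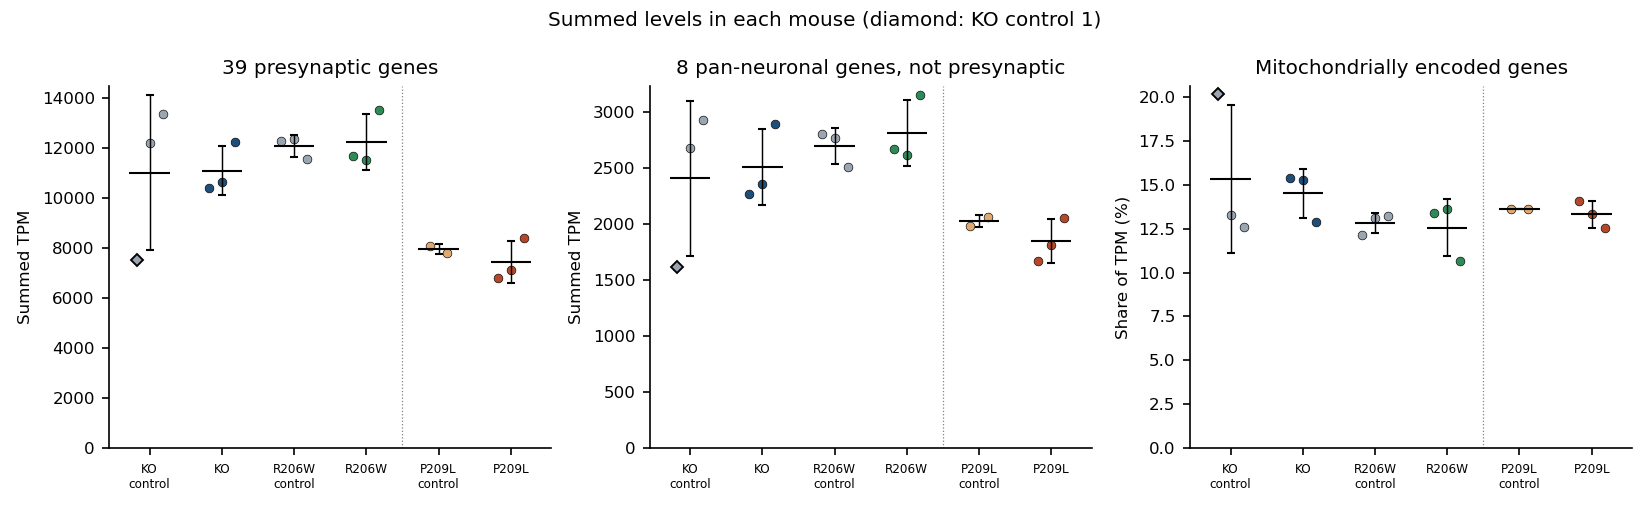
Summed TPM of the 39 presynaptic genes, summed TPM of 8 other neuronal genes and the percent of TPM from mitochondrially encoded genes, by group. Each point is a mouse, bars are group means with SD, and mice to the right of the dotted line were 3 weeks old. The diamond is KO control 1, at 7520 TPM, which lies in the range of the 3-week mice in the left panel.

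Levels ranged widely within the set. In the 6 control mice at 8 weeks the SNARE gene Snap25 was the most abundant, at 2761 ± 483 TPM (SD, n = 6). It was followed by the vesicle protein synaptophysin (Syp) at 883 ± 198 TPM and by synaptobrevin-2 (Vamp2) at 847 ± 119 TPM (SD, n = 6 each). The calcium sensor Syt1 came next, at 796 ± 167 TPM (SD, n = 6). In each of the 6 mice Syt1 was below both Syp and Vamp2, while the order of Syp and Vamp2 varied between mice. The vesicular glutamate transporter Slc17a7 (VGLUT1), typical of cortical excitatory terminals, was at 721 ± 119 TPM (SD, n = 6), and Slc17a6 (VGLUT2), typical of thalamic terminals, was at 15.9 ± 3.11 TPM (SD, n = 6). The lowest members were Doc2b, a calcium-binding protein, at 5.69 ± 1.09 TPM, the Munc13 gene Unc13c at 6.97 ± 1.03 TPM, Sv2c at 7.11 ± 1.82 TPM and the synapsin Syn3 at 8.57 ± 1.75 TPM (SD, n = 6 each). Among active zone genes, Rims1 was at 199.9 ± 10.99 TPM and Erc1 at 17.7 ± 3.71 TPM (SD, n = 6 each).

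The mutants were compared with littermate controls to ask whether loss of Hnrnph2 or a substitution in its product altered presynaptic transcripts. No member passed the test in any line (0 of 39 in KO, R206W and P209L mice, limma with Benjamini-Hochberg adjustment over all 16265 genes, threshold 0.05), and before adjustment 0 of 39 reached 0.05 in any of the 3. Among all tested genes, 0.00615% passed in KO, 0.0369% in R206W and 0.0984% in P209L, and 4.08%, 2.19% and 7.46% had an unadjusted p under 0.05. The median log2 difference of the members, on the log2(TPM + 1) scale used for every difference here, was 0.05 in KO, 0.06 in R206W and -0.06 in P209L, beside 0.06, 0.01 and 0.02 over all genes. The 95% intervals show what differences remain possible. They lay within -1 and 1 (where 1 is a 2-fold change) for all 39 members in KO and in R206W and for 37 members in P209L. They lay within -0.5 and 0.5 for 21, 21 and 14 members. The exceptions to the wider range were Syt2 and Syn1 in P209L, whose intervals were -1.31 to 0.23 and -1.13 to 0.17. KO control 1 bears on R206W and P209L only through the estimate of the spread shared by all groups. Without it, the narrower range held for 18, 35 and 21 members in KO, R206W and P209L. Then 8, 1 and 3 of 39 had an unadjusted p under 0.05, beside 1706, 620 and 1965 of 16265 genes, and again 0 members passed.

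In KO mice the 3 members with the smallest p were Slc17a6, the active zone gene Rims1 and the vesicle protein synaptoporin (Synpr). Slc17a6 was at 17.2, 18.3 and 14.7 TPM in KO mice and at 10.5, 15.0 and 16.9 TPM in their controls, a log2 difference of 0.25 (SE 0.16, adjusted p = 0.999 in limma) that was 0.06 (SE 0.13) without KO control 1. Rims1 was at 178, 188 and 181 TPM in KO mice against 193, 197 and 215 TPM, a log2 difference of -0.15 (SE 0.097, adjusted p = 0.999 in limma). Synpr was at 63.4, 85.5 and 52.6 TPM against 75.3, 81.9 and 67.4 TPM, a log2 difference of -0.18 (SE 0.15, adjusted p = 0.999 in limma). Rims1 was the only member whose KO mice and controls did not overlap, and 6.25% of all genes had such groups.

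The KO comparison depended on KO control 1. With all mice 25 of the 39 members were higher in KO mice than in controls, beside 10942 of all 16265 genes. Without KO control 1, 36 of the 39 were lower, beside 10226 of 16265 genes. The median log2 difference of the members was then -0.22, beside -0.06 over all genes. In the contrast of KO with R206W effects, 35 of 39 were then lower, beside 10057 of 16265 genes. Of the members, 7 had an unadjusted p under 0.05, where 6.98% of all genes did. In KO mice again 0 members passed in limma, and 8 had an unadjusted p under 0.05, all lower, where 7.91% of all genes were lower at that level. They were Pclo at -0.41 (SE 0.090, 95% interval -0.60 to -0.21), Syt1 at -0.39 (SE 0.11), Erc1 at -0.38 (SE 0.17), Slc17a7 at -0.36 (SE 0.14), Sv2b at -0.28 (SE 0.13), the endocytosis gene Amph at -0.27 (SE 0.12), Erc2 at -0.25 (SE 0.11) and Snap25 at -0.21 (SE 0.090), with an adjusted p in limma between 0.391 and 0.468. The summed level of the 8 other neuronal genes was 2269 to 2895 TPM in KO mice and 2677 and 2925 TPM in the remaining KO controls, and its part in this shift was not tested. With all mice, values above 0 in KO against controls were found for 10942 of 16265 genes. They were also found for astrocyte (7 of 7), microglial (7 of 7), endothelial (6 of 6) and oligodendrocyte markers (8 of 8). These markers had medians of 0.26, 0.19, 0.29 and 0.18, and 0 passed. Of these, 2 astrocyte markers and 1 microglial marker had an unadjusted p under 0.05. Their part was not tested either.

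In R206W mice the smallest p belonged to Doc2a, Rims1 and Snap25. Doc2a, which encodes a calcium-binding protein linked to spontaneous and asynchronous release, was at 41.4, 36.1 and 52.1 TPM in R206W mice and at 34.4, 30.9 and 33.7 TPM in controls. The log2 difference was 0.36 (SE 0.19, adjusted p = 1 in limma), although every mutant was above every control. Rims1 was at 213, 212 and 219 TPM against 199.5, 209.1 and 185 TPM, a log2 difference of 0.12 (SE 0.097, adjusted p = 1). Snap25 was at 2506, 2585 and 2748 TPM against 2790.3, 3006 and 2949 TPM, a log2 difference of -0.16 (SE 0.155, adjusted p = 1). Including the complexin gene Cplx2, which was lower, 4 members had groups that did not overlap in R206W, where 16.2% of all genes did.

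In P209L mice the smallest p belonged to Cplx3, Syt4 and Cplx2. Complexins bind the assembled SNARE complex and set when it fuses. Cplx3 was at 19.7, 19.6 and 17.2 TPM in P209L mice and at 14.6 and 16.7 TPM in controls, a log2 difference of 0.26 (SE 0.15, adjusted p = 0.783 in limma). Syt4, a synaptotagmin that binds calcium weakly, was at 108, 92.3 and 97.9 TPM against 93.6 and 71.4 TPM, a log2 difference of 0.27 (SE 0.16, adjusted p = 0.797). Cplx2 was at 199, 249.8 and 287 TPM against 274 and 296 TPM, a log2 difference of -0.23 (SE 0.14, adjusted p = 0.806). Mutants and controls did not overlap for Cplx3, which was higher, and for Syp, Syn1 and Vamp2, which were lower, and 24.9% of all genes had such groups in this comparison of 3 mice with 2. Oligodendrocyte markers moved beside these values, with a sum of 2472 to 3547 TPM in P209L mice and of 4099 and 6110 TPM in their controls. In P209L mice 8 of 8 had an unadjusted p under 0.05, all lower, and 0 passed after adjustment. Their part in the result was not tested.

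**Figure D2:**
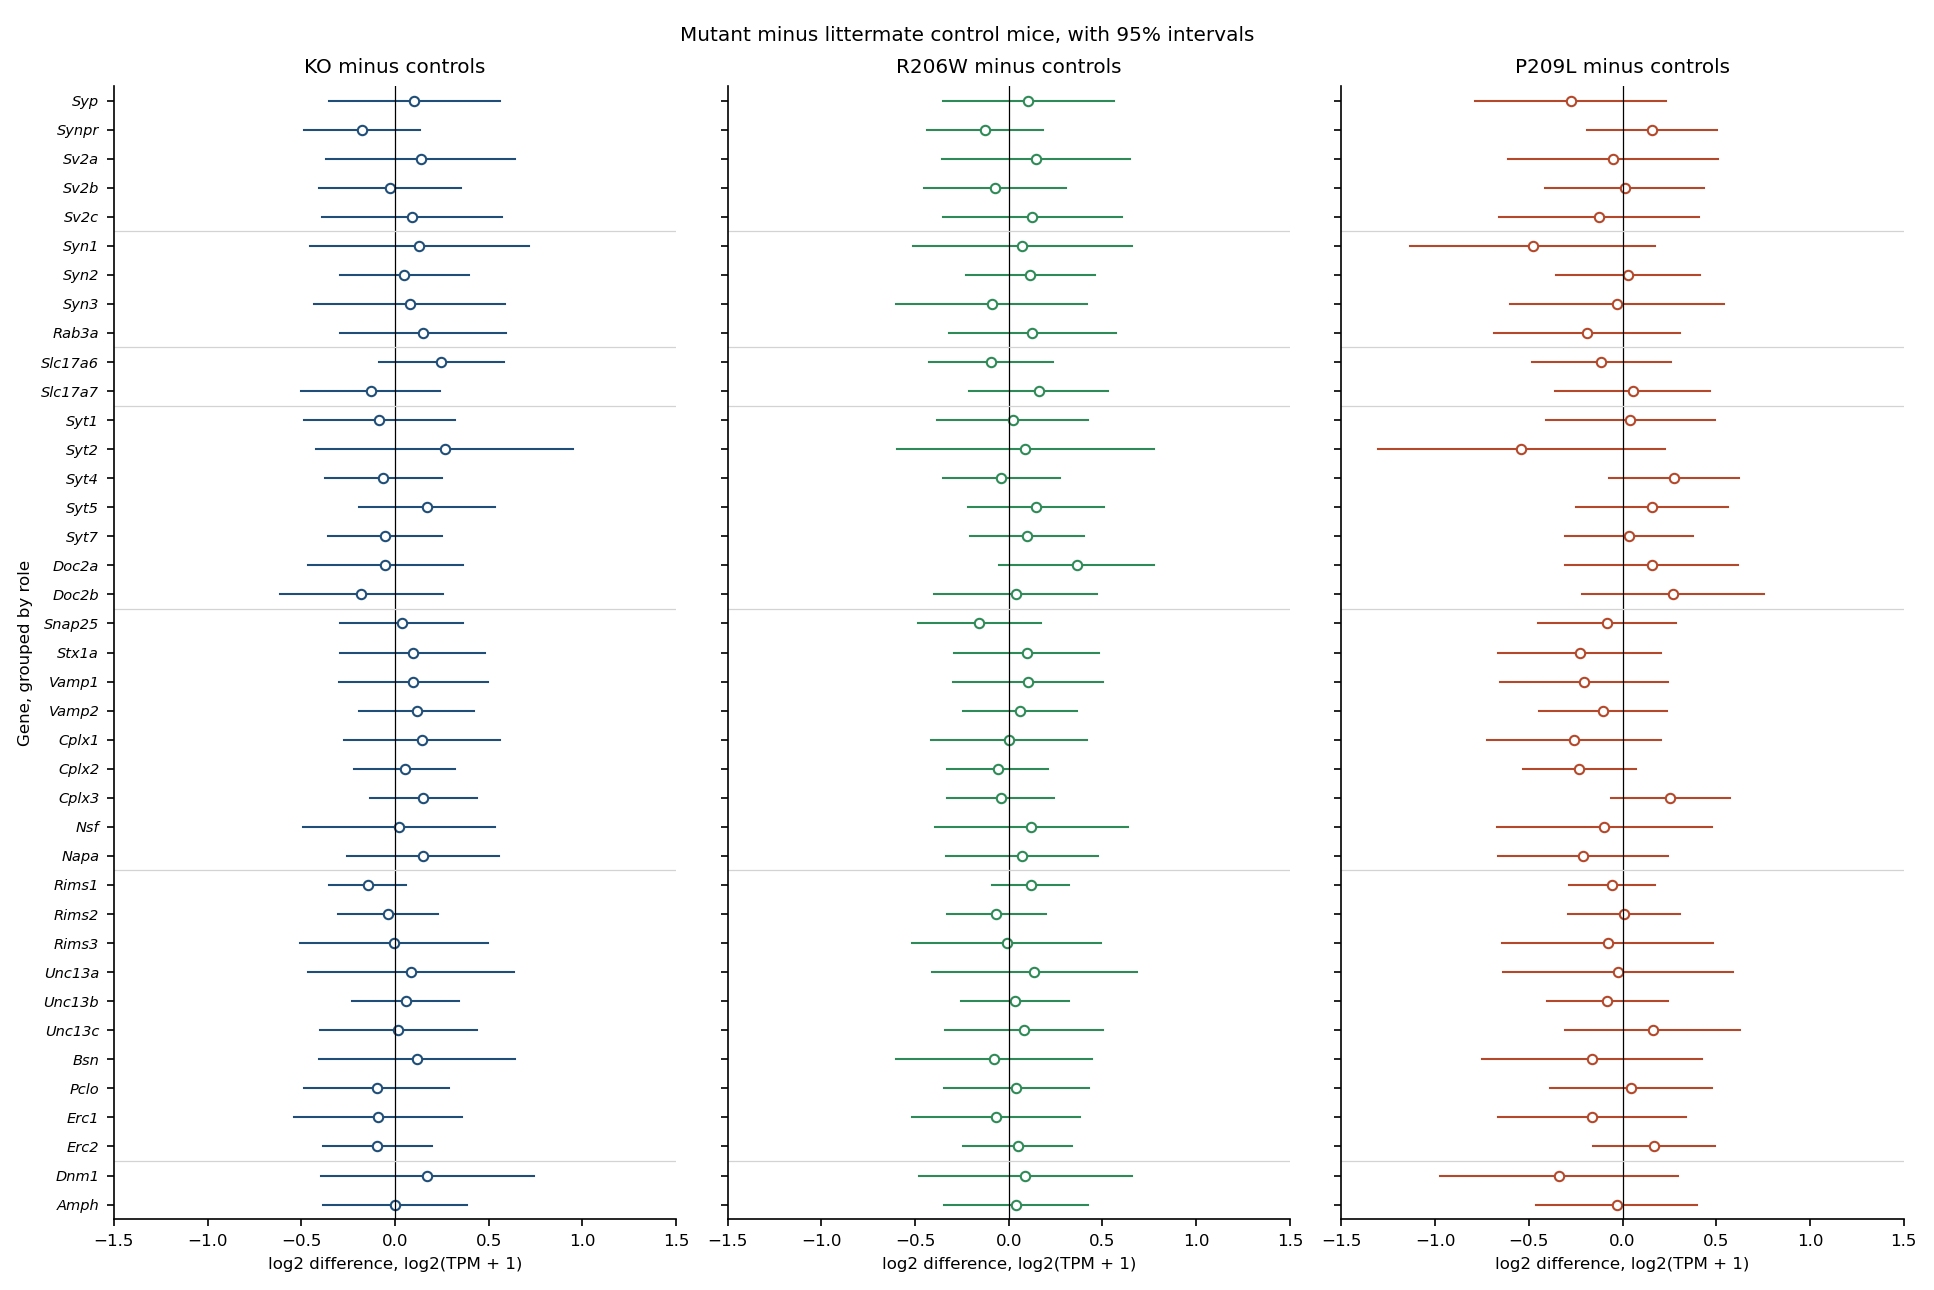
Log2 difference of each of the 39 genes between mutant and littermate control mice, on the log2(TPM + 1) scale, with 95% intervals, for the KO, R206W and P209L lines. Open points did not pass the test, and every point is open. Gray lines separate the roles in the order vesicle membrane, clustering and tethering, glutamate transporters, calcium sensors, SNAREs and their partners, active zone and endocytosis.

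The lines of the same age were compared directly. The KO and R206W effects differed for 0 of 39 members (0 at an unadjusted p under 0.05), where 0.0307% of all genes passed and 2.29% had an unadjusted p under 0.05. The smallest p belonged to Rims1, which was lower than its controls in KO mice and higher in R206W mice, with a difference of the effects of -0.26 (SE 0.14, 95% interval -0.55 to 0.03, adjusted p = 1 in limma). R206W controls and KO controls, all wild type, also had 0 members called (0 at an unadjusted p under 0.05), against 0% and 3.12% of all genes. In that comparison 38 of 39 members were higher in R206W controls, with a median log2 difference of 0.18 beside 0.13 over all genes, of which 13652 of 16265 were higher. With size factors 25 of 39 were higher and the median was 0.04. Without KO control 1, 8 of 39 were higher and the median was -0.07. Scatter between mice was small in R206W controls, where the coefficient of variation of the members ran from 1.27% to 16.1%, and wide in KO controls, where it ran from 5.86% to 49.5% with KO control 1 included.

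The 3-week and 8-week mice were then compared, first among controls. Of the 39 members, 17 passed the test (limma, adjusted over all genes) and all 17 were lower, where 24.8% of all genes passed as lower and 11.3% as higher (36.1% in all). The median log2 difference of the members was -0.43, beside -0.12 over all genes. With median-of-ratios size factors, which bring the median of all genes to -0.02, the members' median was -0.32 and 17 passed, all lower. Slc17a6 was then no longer called (adjusted p = 0.0504 in limma), and Erc1 was called (log2 difference -0.42, adjusted p = 0.0322 in limma). Over all genes the calls changed from 1837 higher and 4039 lower to 3238 higher and 3879 lower. The 2 control mice at 3 weeks lay below all 6 at 8 weeks for 11 members, where 21.5% of all genes did. Without KO control 1, 28 of the 39 passed, all lower and the 17 among them, where 37.4% of all genes did. Leaving out either P209L control lowered the count. Such a fit keeps 1 control mouse at 3 weeks, so its counts are not given.

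The mutant mice gave a second set of animals for the same split, with allele as well as line and age the same split. Of the 39 members, 22 passed, all lower, where 32.1% of all genes passed as lower and 13.9% as higher (45.9% in all), and the median log2 difference was -0.49 beside -0.16 over all genes. The 3 P209L mice lay below all 6 KO and R206W mice for 19 members, where 28.6% of all genes did. Without KO control 1, which bears on this comparison only through the shared estimate of the spread, 30 passed as lower and 1 as higher, where 39.1% of all genes passed as lower. The calls of controls and mutants shared 16 genes, which were 94.1% of the 17 and 72.7% of the 22. Both comparisons used the same estimate of the spread for each gene, so their calls are not independent. The overlap over all genes is not given here. The age difference itself differed between mutants and controls for 0 members (0 at an unadjusted p under 0.05). That comparison was chosen with the values known, and in it 0.0184% of all genes passed and 7.4% had an unadjusted p under 0.05. The call of Syt4 in controls alone, and of Syp, Vamp2, Napa, Unc13a, Erc1 and Dnm1 in mutants alone, is therefore no sign that these genes differ between the sets.

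**Figure D3:**
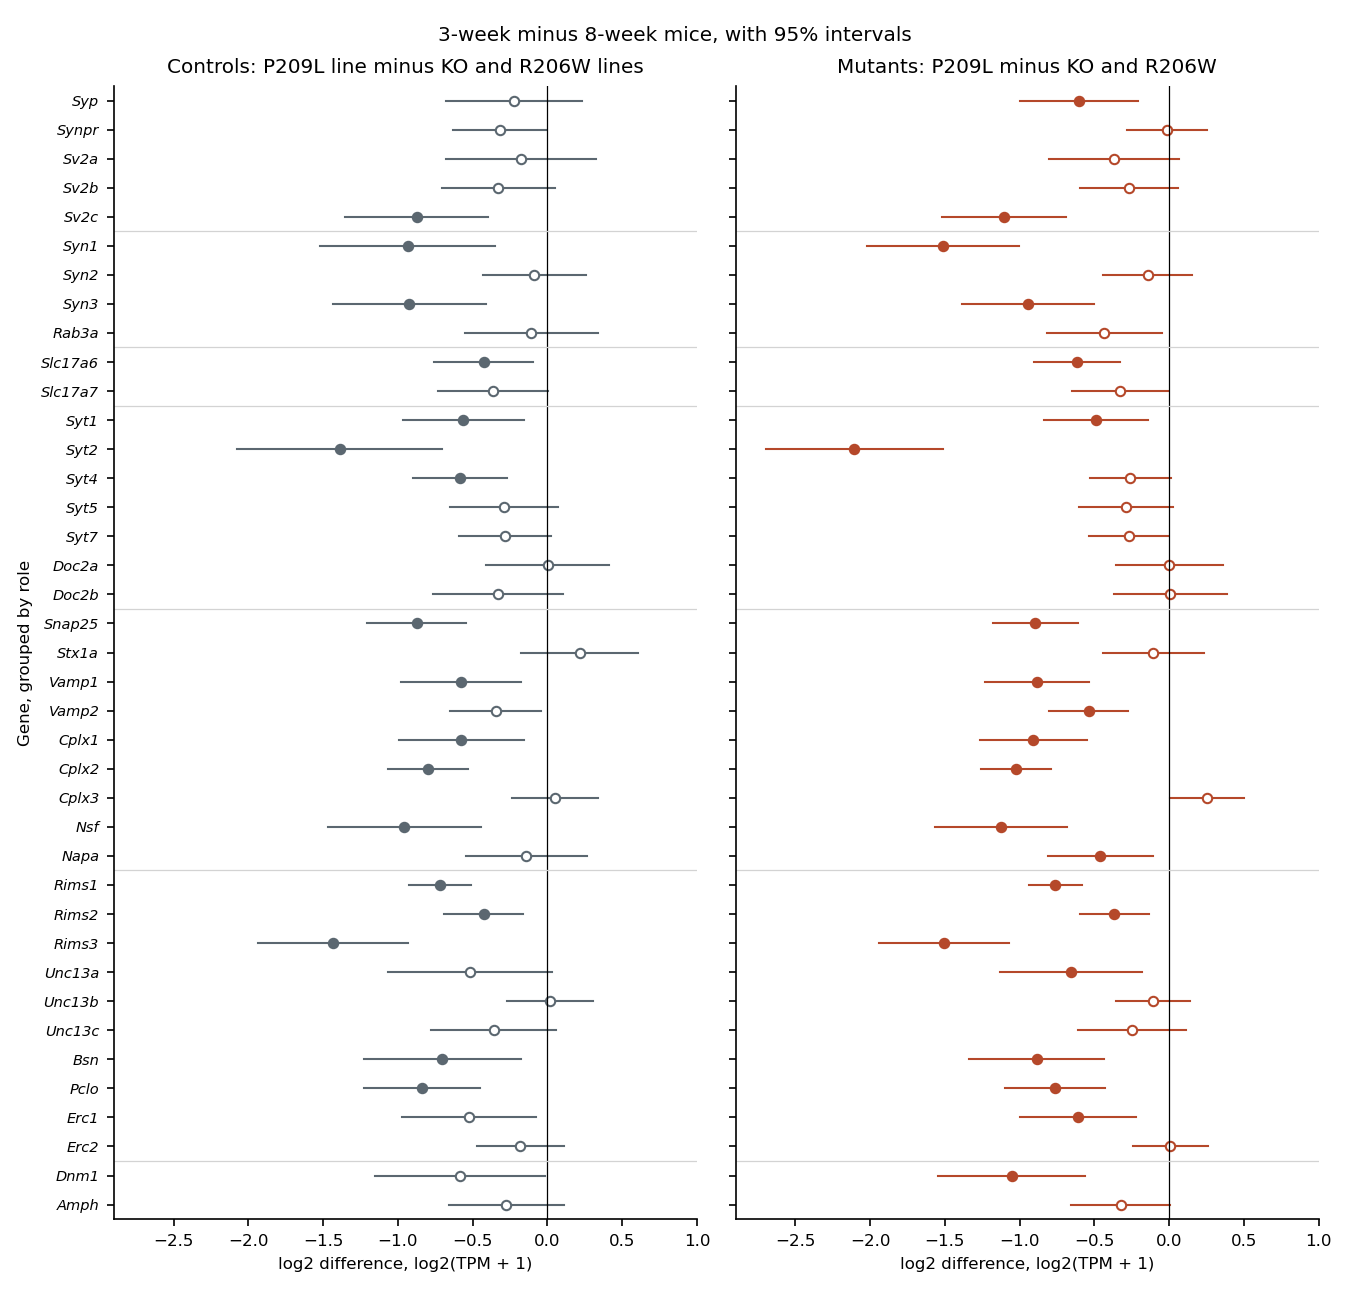
Log2 difference of each of the 39 genes between 3-week and 8-week mice, on the log2(TPM + 1) scale, with 95% intervals, in controls on the left and mutants on the right. Filled points passed the test at an adjusted p under 0.05 (17 in controls, 22 in mutants, all below 0), and gray lines separate the roles.

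Of the active zone genes, 5 of 10 passed as lower in controls and 7 of 10 in mutants, beside 24.8% and 32.1% of all genes. Rims3 (ENSMUSG00000032890.17, chr4:120854816-120896579, plus strand in the GENCODE M21 annotation of GRCm38, as are the positions given for other genes) encodes a short RIM protein that holds little more than the C-terminal domain of the family. It was at 35.7 and 39.03 TPM in the 3-week controls and at 68.0, 109 and 122 TPM (lowest, median and highest of 6) in the 8-week controls. In P209L mice it was at 43.7, 24.2 and 41.5 TPM, and in the 8-week mutants at 79.4, 98.6 and 130.01 TPM (lowest, median and highest of 6). All 5 mice at 3 weeks were thus below all 12 at 8 weeks. In limma this was a log2 difference of -1.43 (SE 0.237, adjusted p = 0.00042 in limma) in controls and -1.504 (SE 0.205, adjusted p = 6.24e-05) in mutants. Piccolo (Pclo, ENSMUSG00000061601.15, chr5:14514918-14863459, plus strand), a giant scaffold protein, was at 37.6 and 36.7 TPM in the 3-week controls and at 41.3, 72.0 and 83.9 TPM in the 8-week controls. It was at 37.6, 36.7 and 40.8 TPM in P209L mice and at 56.7, 65.2 and 81.3 TPM in the 8-week mutants. The 3-week mice were again all below the 8-week mice, but the highest of them, at 40.8 TPM, came close to KO control 1, at 41.3 TPM. This gave a log2 difference of -0.84 (SE 0.18, adjusted p = 0.00268) in controls and -0.76 (SE 0.16, adjusted p = 0.00129) in mutants.

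Rims1, which ties vesicles to calcium channels, had the smallest p of the members in controls, with a log2 difference of -0.72 (SE 0.097, adjusted p = 0.000101 in limma) and a 3-week level that was 60.6% of that at 8 weeks. In mutants it was at -0.76 (SE 0.084). Rims2 was at -0.43 and -0.37 in controls and mutants, and bassoon (Bsn), the partner scaffold of piccolo, at -0.70 and -0.89, and both passed in each set. The control call of Bsn (adjusted p = 0.0363 in limma) was lost under 9 of 29 alternatives. Unc13a, the main Munc13 of forebrain excitatory terminals, and the ELKS gene Erc1 passed in mutants only, at -0.65 and -0.61. With size factors Erc1 passed in controls as well. Unc13b, Unc13c and Erc2 passed in neither, with log2 differences of 0.02, -0.36 and -0.18 in controls.

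Of the SNAREs, complexins and proteins that recycle SNAREs, 5 of 9 passed as lower in controls and 7 of 9 in mutants. Of all genes, 24.8% and 32.1% did. Snap25 (ENSMUSG00000027273.13, chr2:136713453-136782428, plus strand) was at 1576 and 1393 TPM in the 3-week controls and at 1798, 2937 and 3099 TPM in the 8-week controls (lowest, median and highest). In P209L mice it was at 1397, 1286 and 1527 TPM, against 2499.9, 2569 and 2748 TPM in the 8-week mutants. The ages did not overlap, and the 3-week level was 53.8% of the 8-week level in controls and 53.9% in mutants. The log2 difference was -0.88 (SE 0.155, adjusted p = 0.000679 in limma) in controls and -0.89 (SE 0.13, adjusted p = 0.000131) in mutants. Nsf (ENSMUSG00000034187.18, chr11:103821782-103954056, minus strand) was at 185 and 186 TPM in the 3-week controls and at 211, 399.7 and 452 TPM in the 8-week controls. It was at 134, 173 and 225 TPM in P209L mice and at 287, 386 and 514 TPM in the 8-week mutants. P209L 3 was above KO control 1, and otherwise the ages did not overlap. In limma this was a log2 difference of -0.96 (SE 0.24, adjusted p = 0.00675) in controls and -1.12 (SE 0.21, adjusted p = 0.000623) in mutants. Cplx2 was lower by a log2 difference of -0.80 (SE 0.13) in controls and -1.02 (SE 0.11) in mutants, and Cplx1 and the synaptobrevin Vamp1 passed in both sets as well. Cplx3, a complexin best known from the retina and the deepest cortical layer, did not, at 0.05 and 0.25, and neither did syntaxin-1A (Stx1a), at 0.21 and -0.11. With size factors Cplx3 passed as higher in mutants, at 0.41 (adjusted p = 0.00603 in limma).

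Among the calcium sensors, 3 of 7 passed as lower in controls and 2 of 7 in mutants, where 24.8% and 32.1% of all genes did. Syt2 (ENSMUSG00000026452.15, chr1:134646677-134762593, plus strand), the fast sensor of many inhibitory and subcortical terminals, was at 8.01 and 11.7 TPM in the 3-week controls and at 11.6, 31.3 and 36.4 TPM in the 8-week controls. In P209L mice it was at 6.07, 4.47 and 9.29 TPM, and in the 8-week mutants at 24.0, 29.2 and 41.8 TPM. P209L control 2 was above KO control 1, and otherwise the ages did not overlap. This gave a log2 difference of -1.39 (SE 0.32, adjusted p = 0.0041 in limma) in controls and -2.11 (SE 0.28, adjusted p = 5.23e-05) in mutants, the largest difference among the members. Syt1, its counterpart in most cortical terminals, was at -0.56 in controls and -0.49 in mutants and passed in both. Syt4 passed in controls only, at -0.59, and Syt5, Syt7, Doc2a and Doc2b passed in neither. Doc2a was at 30.4 ± 0.078 TPM (SD, n = 2) in the 3-week controls and 31.0 ± 5.90 TPM (SD, n = 6) in the 8-week controls, with a log2 difference of 0.00 (95% interval -0.41 to 0.41).

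Of the synapsins and Rab3a, 2 of 4 passed as lower in each set, and both were synapsins. The shares over all genes were 24.8% in controls and 32.1% in mutants. Syn1 (ENSMUSG00000037217.15, chrX:20860511-20921004, minus strand) was at 132 and 148 TPM in the 3-week controls and at 137, 304 and 351 TPM in the 8-week controls. It was at 83.3, 94.7 and 127 TPM in P209L mice and at 223, 282 and 373 TPM in the 8-week mutants, so that KO control 1 was the only 8-week mouse inside the 3-week range. The log2 difference was -0.93 (SE 0.275, adjusted p = 0.0159 in limma) in controls and -1.51 (SE 0.24, adjusted p = 0.000189) in mutants. Syn3 (ENSMUSG00000059602.14, chr10:86055125-86498896, minus strand) was at 3.78 and 4.16 TPM in the 3-week controls and at 5.44, 8.62 and 10.4 TPM in the 8-week controls. It was at 2.68, 3.80 and 5.53 TPM in P209L mice and at 6.70, 7.81 and 11.8 TPM in the 8-week mutants, and P209L 3 was above KO control 1. In limma this was a log2 difference of -0.92 (SE 0.24, adjusted p = 0.00805) in controls and -0.95 (SE 0.21, adjusted p = 0.00201) in mutants. Syn2 did not pass in either set, at -0.09 (95% interval -0.43 to 0.26) and -0.14 (95% interval -0.44 to 0.15), and neither did Rab3a, the small GTPase that marks vesicles for docking, at -0.11 and -0.44.

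Of the vesicle membrane proteins, Sv2c passed in controls, and Sv2c and Syp in mutants. Sv2c (ENSMUSG00000051111.16, chr13:95954594-96132577, minus strand), a minor member of the SV2 glycoproteins in cortex, was at 2.95 and 3.72 TPM in the 3-week controls and at 3.87, 7.61 and 9.26 TPM in the 8-week controls. It was at 2.93, 2.34 and 3.73 TPM in P209L mice and at 5.97, 7.39 and 9.50 TPM in the 8-week mutants, and the ages did not overlap. This gave a log2 difference of -0.87 (SE 0.23, adjusted p = 0.00762 in limma) in controls and -1.11 (SE 0.195, adjusted p = 0.000436) in mutants. Its paralogs Sv2a and Sv2b, with log2 differences of -0.18 and -0.33 in controls, did not pass in either set. The glutamate transporter Slc17a6 passed in both, at -0.43 and -0.62, and Slc17a7 in neither, at -0.36 and -0.33. The control call of Slc17a6 (adjusted p = 0.044 in limma) was lost under 16 of 29 alternatives, size factors and leaving out either P209L control among them. Other control calls were lost less often. Those of Syt1 and Cplx1 were lost under 8 of 29 alternatives and that of Vamp1 under 5. Those of Syn1 and Rims2 were lost under 3, and those of Syn3, Nsf and Syt4 under 2. Those of Rims1, Sv2c and Syt2 were lost under 1, and those of Snap25, Cplx2, Rims3 and Pclo under 0. Of the endocytosis genes, dynamin-1 (Dnm1) passed in mutants, at -1.05, with -0.58 in controls, and amphiphysin (Amph) passed in neither. In all, 16 of the 39 members passed in neither set.

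Counted over every mouse, all 5 at 3 weeks were below all 12 at 8 weeks for 6 members, which were Sv2c, Snap25, Cplx2, Rims1, Rims3 and Pclo, where 10.2% of all genes were. With KO control 1 left out the count was 19, where 23.8% of all genes were. Other lists also held genes that were lower at 3 weeks, neuronal and not. Over all genes, 24.8% passed as lower in controls and 32.1% in mutants, and 11.3% and 13.9% as higher. Of the 8 neuronal genes with no vesicle role, 2 passed as lower in controls and 5 in mutants and 0 as higher, with median log2 differences of -0.37 and -0.69, and of 7 markers of cortical excitatory neurons 3 and 2 passed as lower. Oligodendrocyte markers passed as higher at 3 weeks for 6 of 8 in controls, while in mutants 1 of 8 passed, as lower. Astrocyte markers passed as lower for 3 of 7 in controls and 5 of 7 in mutants, with medians of -0.40 and -0.61. Microglial markers passed as lower for 3 of 7 in each set and as higher for 1 in controls. Of 6 endothelial markers, 1 passed as lower and 1 as higher in controls and 4 as lower in mutants. When each mouse was rescaled to an equal level of the 8 neuronal genes, a choice made after the values were seen, 14 members passed in controls, 10 lower and 4 higher, and 25 in mutants, 13 lower and 12 higher. Among all genes under this scaling, 9.77% passed as lower and 28.9% as higher in controls, and 7.87% and 50.1% in mutants. Those lower in both under this scaling were Rims3, Syt2, Syn3, Nsf, Sv2c, Syn1, Snap25, Pclo, Cplx2 and Bsn. Stx1a, Doc2a and Unc13b were higher in both. The scaling moved the median of all genes to 0.19 in controls and 0.34 in mutants. The part of cell composition in the age difference was not tested.

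**Figure D4:**
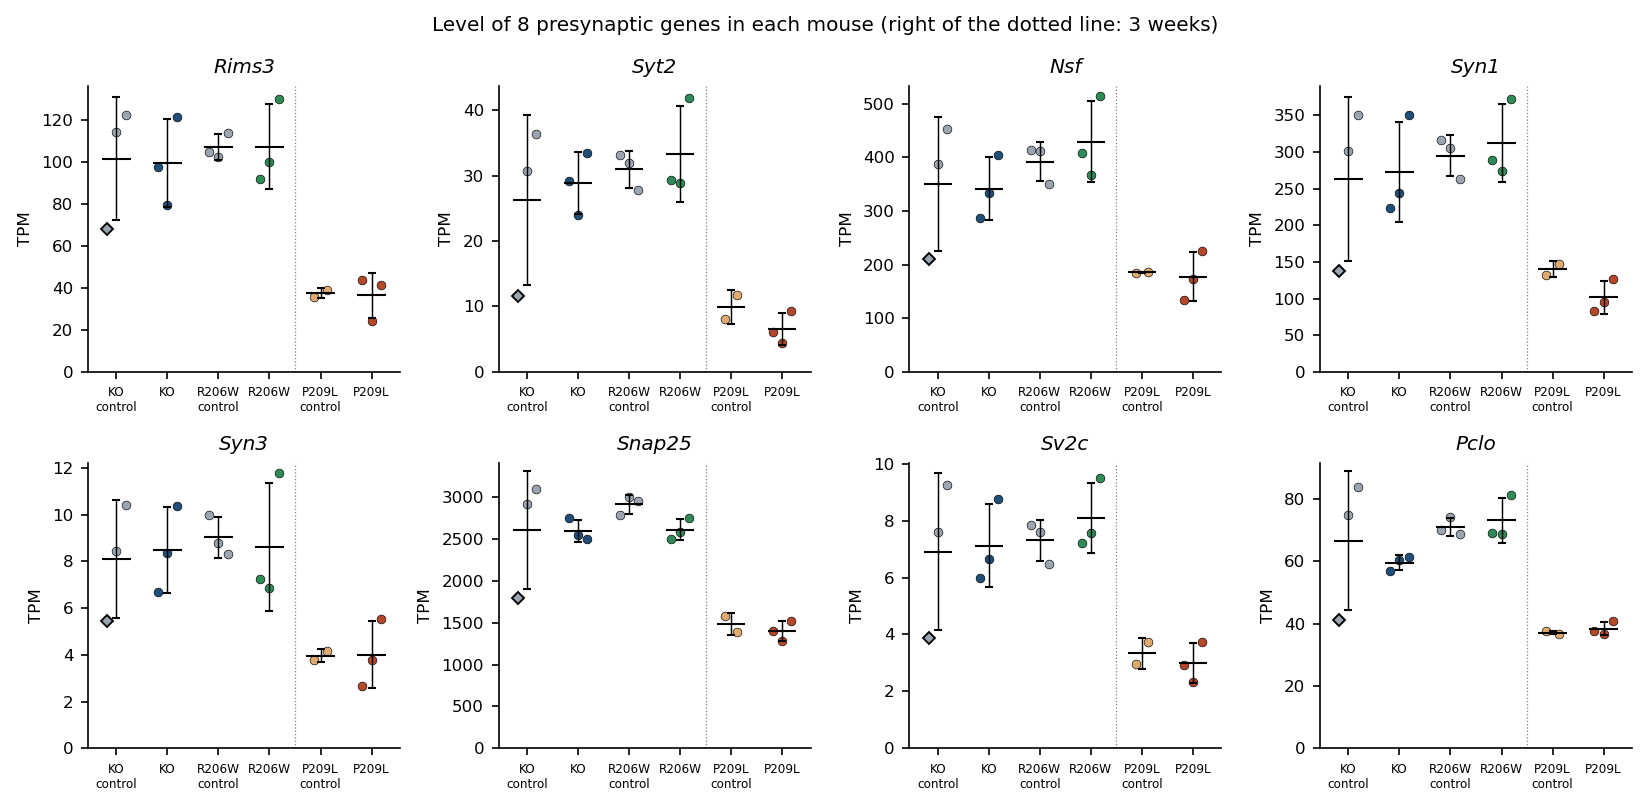
TPM in each mouse for the 8 members with the largest log2 difference between 3-week and 8-week controls among those past the threshold. Points are mice, bars are group means with SD, mice to the right of the dotted line were 3 weeks old, and the diamond is KO control 1. For Rims3, Snap25, Sv2c and Pclo the 3-week mice are all below the 8-week mice, and for Syt2, Nsf, Syn1 and Syn3 KO control 1 is the 1 mouse at 8 weeks that lies inside the 3-week range.

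Because the members called in both sets were all lower at 3 weeks, the stretch of 250 bases before the RefSeq start of each member was searched for motifs. RefSeq and GENCODE can place a start differently, and the RefSeq start of Syn1 lies inside the GENCODE gene. RefSeq (GRCm38.p6) held entries for 30 of the 39 members, with 39 starts, among 32851 starts in all. The 5 sequences shown are those of the 8 genes plotted above that had exactly 1 entry, written on the strand of the gene, with motif matches on either strand in capitals. In Rims3 (chr4:120854549-120854798, plus strand), Sv2c (chr13:96132578-96132827, minus strand) and Pclo (chr5:14514668-14514917, plus strand) the capitals mark GC boxes (GGGCGG, or CCGCCC on the other strand), the core of Sp1 sites. In Nsf (chr11:103954057-103954306, minus strand) they mark an E-box (CACGTG), and in Syn1 (chrX:20920919-20921168, minus strand) the left part of an RE1 element (TTCAGCACC), known as a target of the repressor REST, and a cyclic AMP response element (TGACGTCA).
Rims3: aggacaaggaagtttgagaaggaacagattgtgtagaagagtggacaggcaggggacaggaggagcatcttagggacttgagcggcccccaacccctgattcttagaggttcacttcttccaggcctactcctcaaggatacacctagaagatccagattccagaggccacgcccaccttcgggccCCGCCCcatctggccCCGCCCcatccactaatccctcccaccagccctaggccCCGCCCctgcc
Nsf: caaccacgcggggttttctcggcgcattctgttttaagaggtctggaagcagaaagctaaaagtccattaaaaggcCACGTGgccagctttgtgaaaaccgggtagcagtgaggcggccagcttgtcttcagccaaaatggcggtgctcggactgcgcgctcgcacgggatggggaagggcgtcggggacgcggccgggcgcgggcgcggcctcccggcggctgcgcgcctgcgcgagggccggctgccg
Syn1: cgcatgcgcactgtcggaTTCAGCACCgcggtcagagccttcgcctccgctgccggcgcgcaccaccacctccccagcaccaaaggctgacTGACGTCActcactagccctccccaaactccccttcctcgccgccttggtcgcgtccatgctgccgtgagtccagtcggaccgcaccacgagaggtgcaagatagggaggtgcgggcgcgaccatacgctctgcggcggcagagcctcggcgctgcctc
Sv2c: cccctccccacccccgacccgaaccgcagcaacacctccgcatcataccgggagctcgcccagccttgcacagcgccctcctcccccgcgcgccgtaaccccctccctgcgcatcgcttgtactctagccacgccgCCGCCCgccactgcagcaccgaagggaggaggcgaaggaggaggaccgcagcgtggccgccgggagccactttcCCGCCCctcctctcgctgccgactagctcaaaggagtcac
Pclo: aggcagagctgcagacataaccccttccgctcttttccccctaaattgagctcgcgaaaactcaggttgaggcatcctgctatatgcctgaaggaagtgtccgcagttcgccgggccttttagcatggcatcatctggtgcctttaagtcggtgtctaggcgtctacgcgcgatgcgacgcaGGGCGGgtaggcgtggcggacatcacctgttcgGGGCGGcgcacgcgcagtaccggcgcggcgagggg

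A GC box was in 56.4% of the members' stretches and in 32.7% of all. The full cyclic AMP response element was in 2.56% (Syn1) against 1.55% of all, its shorter core TGACG, which the full element contains on both strands, in 20.5% against 17.8%, and the E-box in 12.8% against 6.02%. The RE1 part was in 2.56% (Syn1) against 0.301%. These are counts of letters in a window and no sites. GC boxes were shared by Rims3, Sv2c and Pclo, which were lower at 3 weeks, and by Syn2, Sv2a and Stx1a, which passed in neither set.

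Shares within families of paralogs do not depend on the scaling of a sample and are given as a description. The share of Syn1 in the summed TPM of the 3 synapsins was 40.3% in the 3-week controls and 54.4% in the 8-week controls, and 32.3% in P209L mice against 54.8% in the 8-week mutants. That of Syn2 was 55.7% to 70.5% in the 5 mice at 3 weeks and 40.3% to 51.8% in the 12 at 8 weeks, with no overlap, KO control 1 included. Syn2 was thus the leading synapsin transcript in every 3-week mouse, whereas Syn1 led in 11 of the 12 at 8 weeks. Among RIM genes, Rims2 took 24.2% to 28.6% at 3 weeks and 16.9% to 21.6% at 8 weeks, again with no overlap. Rims3 took 12.4% to 22.5% and 21.1% to 33.3%, and KO control 1, at 21.1%, lay inside the 3-week range. The share of Cplx3 among complexins was 2.41% to 4.35% at 3 weeks and 1.24% to 1.96% at 8 weeks, and that of Sv2c among SV2 genes was 0.721% to 1.22% and 1.63% to 2.30%. Syt2 took 0.867% to 2.38% of the sum of Syt1 and Syt2 at 3 weeks and 2.40% to 4.65% at 8 weeks. Of 25 paralogs in 10 families, 7 had shares that did not overlap between the ages. Among the 7, Syt1 and Syt2 form a single difference, since the share of either fixes the other. No such figure for other gene families is given here.

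Shares of other families overlapped between the ages. Slc17a7 made up 97.8% to 98.6% of the sum of both glutamate transporters at 3 weeks and 96.9% to 98.2% at 8 weeks. Vamp2 made up 88.4% to 91.1% of the synaptobrevins at 3 weeks and 86.1% to 89.4% at 8 weeks. Between mutants and controls of a line, the shares that did not overlap were those of Slc17a6, Slc17a7, Sv2a and Rims2 in R206W mice and of Cplx3, Erc1 and Erc2 in P209L mice. The largest of these was Sv2a, at 46.3% of SV2 transcripts in R206W mice and 42.6% in their controls. The lowest R206W mouse, at 42.97%, was barely above the highest control, at 42.96%, and the shares of Sv2b overlapped. Slc17a6 and Slc17a7 form a single difference, since the share of either fixes the other, and so do Erc1 and Erc2. For TPM itself, 16.2% of all genes had groups that did not overlap in R206W and 24.9% in P209L. No such figure for the shares of other gene families is given here.

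**Figure D5:**
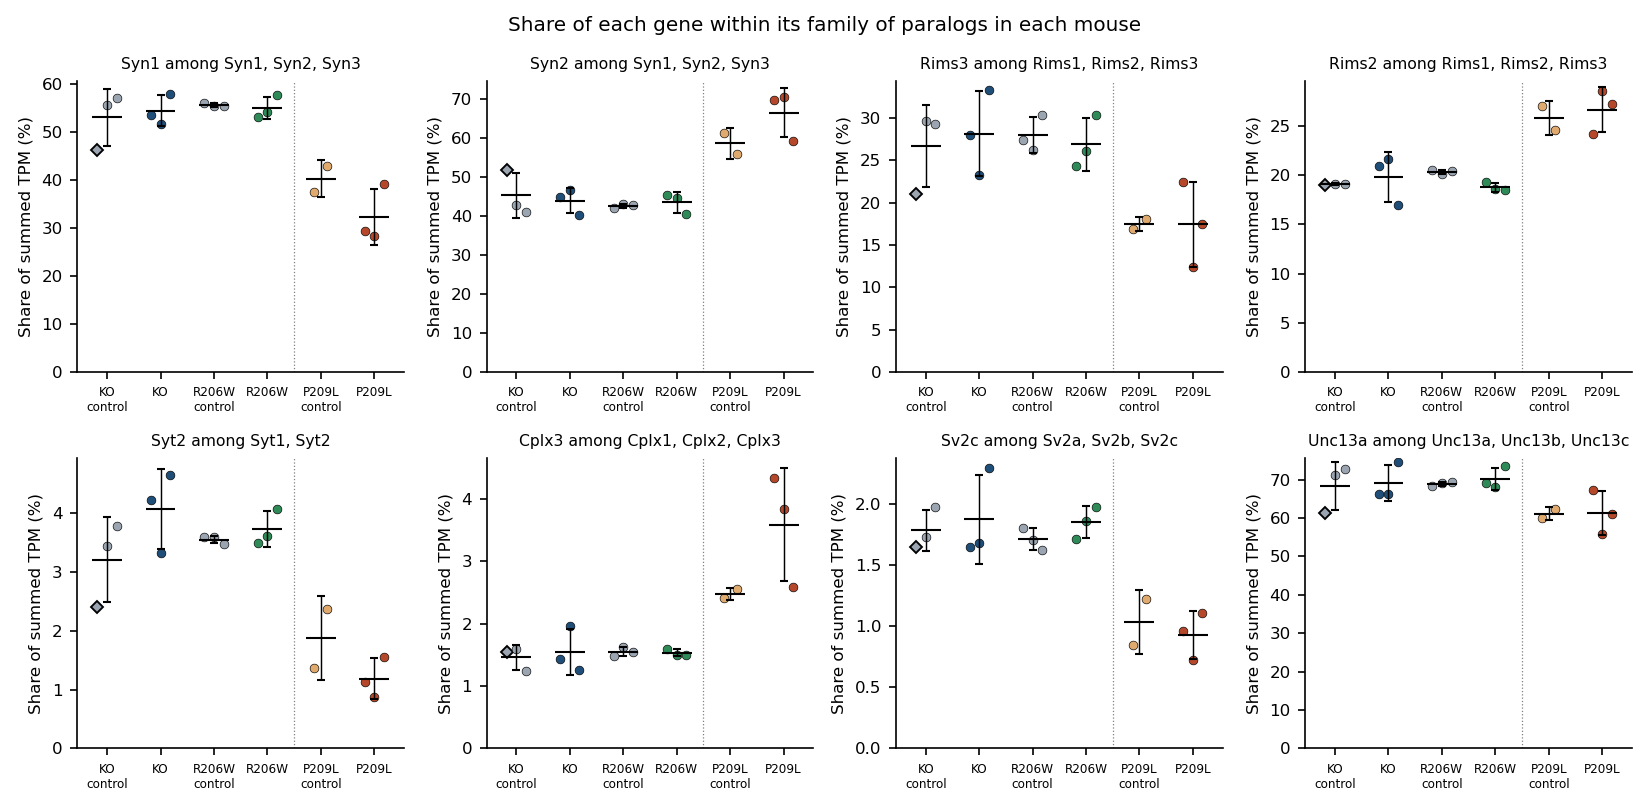
Percent of the summed TPM of a paralog family taken by each of 8 genes, in each mouse. Points are mice, bars are group means with SD, mice to the right of the dotted line were 3 weeks old, and the diamond is KO control 1. Syn2 lies between 55.7% and 70.5% at 3 weeks and between 40.3% and 51.8% at 8 weeks.

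A list of 50 further presynaptic genes, all tested, gave the setting of the 39. In KO mice 0 passed (0 had an unadjusted p under 0.05), and in P209L mice 0 (4 had an unadjusted p under 0.05). In R206W mice 1 passed, which was Ppfia3 (ENSMUSG00000003863.18, chr7:45339122-45367019, minus strand, liprin-alpha-3, an active zone scaffold protein). Ppfia3 was at 129, 130.5 and 128 TPM in R206W mice and at 77.5, 74.1 and 76.1 TPM in their controls, a log2 difference of 0.76 (SE 0.11, adjusted p = 0.0141 in limma). In P209L mice it was at 121, 119.6 and 122 TPM against 75.6 and 81.4 TPM, a log2 difference of 0.62 (SE 0.13, adjusted p = 0.088). Both knockin lines thus had no overlap with their controls, whereas KO mice, at 75.8, 71.5 and 96.4 TPM against 63.1, 73.9 and 79.4 TPM, did overlap. Set against each other, the effects in KO and R206W differed by -0.59, which did not pass (adjusted p = 1 in limma). The R206W call was lost whichever of the 6 mice of that line was left out, and also with the replicate number as a block within each line. The log2 difference itself stayed between 0.74 and 0.77 with a mouse left out.

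With age, most calls among the 50 further genes were lower at 3 weeks. In controls 18 passed as lower at 3 weeks and 1 as higher, where 24.8% and 11.3% of all genes did, with a median log2 difference of -0.33, and in mutants 23 passed as lower and 1 as higher, where 32.1% and 13.9% of all genes did, with a median of -0.32. The 19 calls in controls became 35 without KO control 1, where 8181 of all 16265 genes passed, and became fewer without either P209L control. Without P209L 1, the 24 in mutants became 13, and the share of all genes in that fit is not given here. The calls shared 14 genes, which were 73.7% of the 19 and 58.3% of the 24, again with a shared estimate of the spread. For these calls too, the overlap over all genes is not given. The 6 with the largest differences in controls were all lower. Among them were Stxbp5l (tomosyn-2, which competes for SNAREs) at -1.77 (SE 0.21), the Rab3 effector Rph3a at -0.96 (SE 0.23), the GTPase Rab3c at -0.88 (SE 0.18) and Syt10 at -0.85 (SE 0.25), with an adjusted p in limma of 4.72e-05 to 0.0167. In mutants the log2 differences were -1.20 for Stxbp5l, -1.29 for Rph3a and -0.57 for Rab3c, which passed, and -0.34 for Syt10, which did not. The gene that was higher in controls was the liprin gene Ppfia4, at 0.45 (SE 0.16, adjusted p = 0.0445), which was named after its values were seen.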

How the data were processed

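Total RNA from flash-frozen cortex was sequenced as stranded total RNA libraries. The deposited values are TPM per gene in a single table for the 17 mice, made by the authors and summing to 1000000 in each mouse. Per the labels, the submitters' processing notes name Trim Galore, STAR 2.7.1a, GATK 4.0.4.0, RSEM and mm10, and the annotation is not given in the sources used here. TPM keeps no depth, so the depth is unknown and no counting interval is given. Of 55573 table entries, 120 repeated a symbol and were summed. Another P209L control was not analysed here.

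Differences were computed with limma 3.58.1 (R 4.3.3, trended variance) on log2(TPM + 1), which understates changes of low genes, for the 16265 genes with a mean of at least 1 TPM. A single fit held the 6 group means, so all groups shared an estimate of the spread. P-values were two-sided, adjusted by Benjamini-Hochberg over all genes tested and called at 0.05. They set a difference between group means against the spread between mice within groups. Since only the P209L line was sampled at 3 weeks, the p-values with age do not take in variation between lines. The fit was tested on simulated data. Named genes were the 3 members of smallest p where none passed in a mutant line, the 8 largest called differences among members with age in controls, and of the 50 further genes those called in a mutant line and the 6 largest with age in controls. Some genes that this rule names are not reported here. Members and lists were chosen with earlier results of these data known. Alternatives changed the pseudocount, filter, scaling, samples, weights and replicate block, or left out each mouse.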

Additional observations from a re-analysis of the deposited data

Results flagged for a closer look

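A test for a single value far from the rest of its group (Dixon's test at its 95% critical value) was applied to the 39 genes in the 6 control mice and in the 6 mutant mice at 8 weeks. By chance about 1 in 20 groups would show such a value. In controls it marked 19 of the 39 genes, each time because KO control 1 was far below the other 5. Its values were 1797.58 TPM for Snap25, 471.3 TPM for Syt1, 418.99 TPM for Cplx2, 274.93 TPM for Dnm1, 159.79 TPM for Napa and 138.4 TPM for Sv2b. They were 116.34 TPM for Syt5, 109.23 TPM for Syt7, 75.87 TPM for Vamp1, 67.99 TPM for Rims3, 63.73 TPM for Erc2, 61.24 TPM for Rims2 and 60.01 TPM for Amph. They were 50.91 TPM for Bsn, 41.3 TPM for Pclo, 34.03 TPM for Unc13b, 19.18 TPM for Doc2a, 11.59 TPM for Syt2 and 10.45 TPM for Erc1. The genes share this mouse, so the 19 are not independent.

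In mutants it marked 1 of the 39 genes. Cplx3 was at 19.31 TPM in KO 2, and the next of the 6 mutants at 8 weeks was at 15.85 TPM.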

How the results depend on the processing

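The count of 0 members past the threshold in KO, R206W and P209L mice, in the KO minus R206W difference and between the control lines held under all alternatives run. The 22 members past the threshold in 3-week mutants, counted in either direction, ranged from 17 to 31 with a mouse left out and from 19 to 32 under other settings. The 17 in 3-week controls became 11 with only the groups compared in the fit and 28 with sample weights, and ranged from 6 to 28 with a mouse left out (6 without P209L control 1, 7 without P209L control 2, 28 without KO control 1). The further genes in controls, 19, became 11 with no filter or with only the groups compared, and 35 with weights, and ranged from 6 to 35 with a mouse left out. In mutants, 24 became 37 with weights and ranged from 13 to 35. The R206W call became 0 with scaling to other neuronal genes and with the replicate block within each line, and ranged from 0 to 1 with a mouse left out. In all, the call of Ppfia3 was lost under 8 of 30 alternatives. Elavl3, which is among the neuronal genes scaled to, was at 118, 121 and 128 TPM in R206W mice. In their controls it was at 94.6, 96.3 and 94.8 TPM, and its part was not tested. The P209L count rose from 0 to 1 with size factors, quantile normalization, mitochondrial genes removed or weights, and ranged from 0 to 1 with a mouse left out. The KO minus R206W count rose from 0 to 1 with weights. Under neuronal scaling the 3-week mutants reversed for Syt1 (0.082), Vamp2 (0.035), Napa (0.11) and Rims2 (0.20). The share of Syt1, 1.51 points higher in 3-week controls, ranged from 1.00 to 2.01 with a mouse left out. The cause of these changes was not tested. Replicate numbers gave no clear sign of pairing. Of 8 same-numbered pairs 2 had a correlation of deviations over 0.1 (range -0.113 to 0.331), and 2 matched their own number best. The deviations were taken within groups of 2 or 3 mice, so these values cannot exclude pairing. With the number as a replicate block, 0 members passed in each mutant line, 17 in 3-week controls and 26 in 3-week mutants. The neuronal scaling and the block within lines were chosen after seeing the data. With TPM alone, the limit set by depth cannot be given.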
